A study of Homo sapiens with 4 samples.

Results

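The comparison set 1 array against another. The first, called the Dicer antibody array, is labelled as MCF10A cells treated with exosomes of MDA-MB-231 that held an antibody to Dicer. The second, called the untreated array, is labelled as MCF10A cells with no treatment named. Its members were the genes with a detection p-value below 0.01 on either array, 12517 of the 20043 genes with a named probe. Of these, 10164 were detected on both arrays, 1228 on the untreated array alone and 1125 on the Dicer antibody array alone. At the limit of this rule, the 104 genes just inside it had a lower detection p of 0.00909 and a median brighter signal of 72.1 units. The 54 genes just outside it had 0.01039 and 67.4 units.

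MCF10A is an epithelial line from breast tissue that does not form tumours, and MDA-MB-231 comes from a breast cancer. All cells were kept in medium whose serum had been cleared of exosomes. Exosomes are small vesicles that cells release and that can carry proteins and RNA into other cells. Dicer is the enzyme that cuts microRNA precursors into mature microRNAs, and an antibody placed inside the vesicles binds it there. The amount of exosomes and the time of exposure are not named in the labels. The assay was a 1-colour bead array of labelled copies of total RNA, so mature microRNAs were not measured.

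Each group held 1 array, so no difference could be tested and precision is limited by the number of arrays. Probes detected made up 40.47% of the untreated array and 40.7% of the Dicer antibody array, with median signals of 58.7 and 62.5 units. The other 2 arrays of the series detected 5.44% and 5.34% and were left out. Signals below are as deposited, background included, and are given with the untreated array first and the Dicer antibody array second. Folds and log2 differences (Dicer antibody minus untreated) follow background correction and quantile normalization over these 2 arrays, which can make them larger than the ratio of the signals. For a gene detected on 1 array alone the difference is a bound, written "at least" and given at its smallest size over the settings tried. Such a gene could not come out higher on the array where it was undetected, which limits the counts by family below.

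Marker lists did not match the epithelial label well. None of 3 basal epithelial markers with a probe passed the detection limit on either array, at 39.8 to 49.5 and 43.5 to 70.9 units. Of 6 luminal markers, 2 passed on the untreated array and 4 on the other. All 10 fibroblast markers were detected on the untreated array, with signals summing to 76457.3 units, and 7 on the Dicer antibody array, summing to 4387.1 units. Of 5 leukocyte markers with a probe, CD68, a lysosomal protein of macrophages, read 2488 and 410.1 units. CD14, a co-receptor for bacterial lipopolysaccharide, read 297.9 and 624.6 units. PTPRC, at 54.5 and 50.3 units, and CD3E, at 48.8 and 52.1 units, passed the detection limit on neither array. LYZ, at 52.8 and 72.4 units, passed it narrowly and only on the Dicer antibody array. In these bulk samples fewer cells of a type and less RNA per cell cannot be told apart, and the part of other cell types in the results below was not tested.

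A difference of 2-fold or more was found for 37.1% of the 12517 genes. As shares of all genes, 17.4% were higher on the Dicer antibody array and 19.7% lower. These were 2178 higher and 2467 lower genes, of which 466 and 574 were bounds. The distribution was wide but centred near 0, with a median log2 difference of -0.02 and quartiles of -0.73 and 0.66 over the genes detected on both arrays. Differences of at least 10-fold were found for 211 higher and 305 lower genes, and of at least 100-fold for 18 and 22. At the other end, 5406 genes lay within 1.5-fold. Among 901 called genes with another detected probe, that probe differed in the same direction for 833 (92.45%) and was itself at least 2-fold different in that direction for 600 (66.59%).

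**Figure D1:**
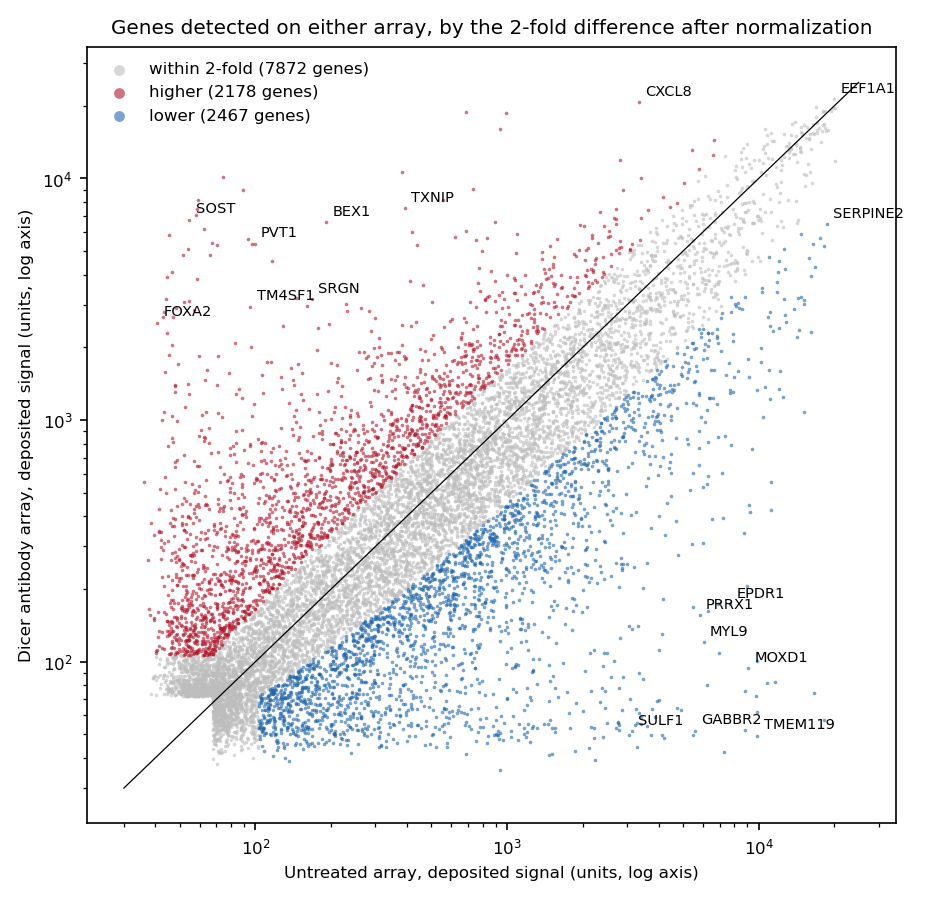
Deposited signal of each compared gene on the untreated array (x axis, units, log scale) and on the Dicer antibody array (y axis, units, log scale), coloured by whether it was at least 2-fold higher (2178 genes), at least 2-fold lower (2467) or within 2-fold (7872) after normalization, with the diagonal marking equal signals. TMEM119 and SOST lie near opposite axes, and EEF1A1 lies on the diagonal.

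The brightest transcripts differed little. EEF1A1, which delivers aminoacyl-tRNA to the ribosome, read 20002.6 and 21230.5 units, a log2 difference of 0.06. Its other bright probes had log2 differences of 0.135 and -0.055, but a dimmer one, at 1468.1 and 587.3 units, had -1.14. Ferritin light chain (FTL) read 20192.9 and 19607.8 units, and the ribosomal protein gene RPS12 read 18390.7 and 19043.9 units. Such signals lay near the highest of each array, 20731.9 and 21381.9 units, where quantile normalization gives equal ranks equal values. A small difference there therefore says little about equal amounts of RNA. An exception among the 10 brightest genes of the untreated array was the protease inhibitor SERPINE2, at 18664.8 and 6452.1 units, 2.68-fold lower. Among the 10 brightest of the Dicer antibody array, the neutrophil-attracting chemokine CXCL8 read 3339.7 and 20768.2 units, 6.76-fold higher. DICER1 itself read 326.6 and 280.5 units, a log2 difference of -0.08.

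Outside the well-known families, the gene with the largest difference upward among those detected on both arrays was PVT1, a long non-coding RNA whose gene lies beside MYC. It read 99.4 and 5378.2 units, 90.9-fold higher, and MYC, a transcription factor that drives growth, read 731.9 and 9044.5 units. The secreted Wnt inhibitor FRZB read 71.3 and 1837.5 units, 52.7-fold higher. TM4SF1, a membrane protein of the tetraspanin-like group, read 95.5 and 2951.4 units, 52.2-fold higher. All of these were close to the detection limit on the untreated array, apart from MYC.

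Regulators of growth and transcription were also among these genes. E2F2, a factor that switches on genes of DNA replication, read 78.4 and 1571.3 units, 37.7-fold higher. HES4, a repressor of the Notch pathway, read 95.7 and 2002.8 units, 35.4-fold higher. SINHCAF, a subunit of the SIN3 histone deacetylase complex, read 128.7 and 2451.6 units, 28.3-fold higher. IRX2-DT, a non-coding transcript that starts next to the homeobox gene IRX2, read 70.1 and 1395.1 units, 40.6-fold higher. All of them were dim on the untreated array.

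Further higher genes outside the well-known families had other roles. Interleukin 32 (IL32), an inflammatory cytokine, read 160.7 and 2967.1 units, 26.2-fold higher. Serglycin (SRGN), the core protein of secretory granule proteoglycans, read 167.2 and 3173.2 units, 26.8-fold higher. TXNIP, which binds thioredoxin and limits glucose uptake, read 391.7 and 7539.8 units, 24.5-fold higher. DIO2, which activates thyroid hormone, and TNFRSF9, a co-stimulatory receptor also called 4-1BB, were 26.8-fold and 26.7-fold higher. The other DIO2 probe was undetected on both arrays, at 52 and 61.2 units. Within the well-known families, the matrix mineralization inhibitor MGP read 70.3 and 5292.1 units, 156.7-fold higher. Kynureninase (KYNU), of tryptophan breakdown and also within them, read 97.3 and 5343.8 units, 93.1-fold higher.

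Lower genes outside the well-known families were led by MOXD1, a copper-dependent monooxygenase related to dopamine beta-hydroxylase, at 9069 and 93.8 units, 148-fold lower. The myosin light chain MYL9, which regulates contraction in smooth muscle and other cells, read 6045.8 and 120.7 units, 64.6-fold lower. CD248 (endosialin), a surface protein of stromal cells and pericytes, read 2788.9 and 77.7 units, 62.2-fold lower. VAMP5, a membrane fusion protein first described in muscle cells, read 3348.5 and 89.6 units, 57.8-fold lower. Each of these was among the brighter transcripts of the untreated array and near the detection limit on the Dicer antibody array.

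Transcription factors and matrix genes stood beside them. PRRX1, a homeobox factor of mesenchyme, read 5824.4 and 156.3 units, 42.9-fold lower, although its dimmer probe read 100.9 and 74.1 units, a log2 difference of -0.87. EMX2, a homeobox factor of forebrain and kidney development, was 50.7-fold lower. CTHRC1, a secreted matrix protein, read 2458.2 and 76 units, 56.9-fold lower. EPDR1, a secreted protein related to ependymins, read 7685.3 and 172.6 units, 49.5-fold lower. GAS1, a cell surface co-receptor for hedgehog ligands, read 4139.2 and 130.1 units, 39.9-fold lower. SH3PXD2A (TKS5), a scaffold of invasive podosomes, read 2657.1 and 100.5 units, 37-fold lower.

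**Figure D2:**
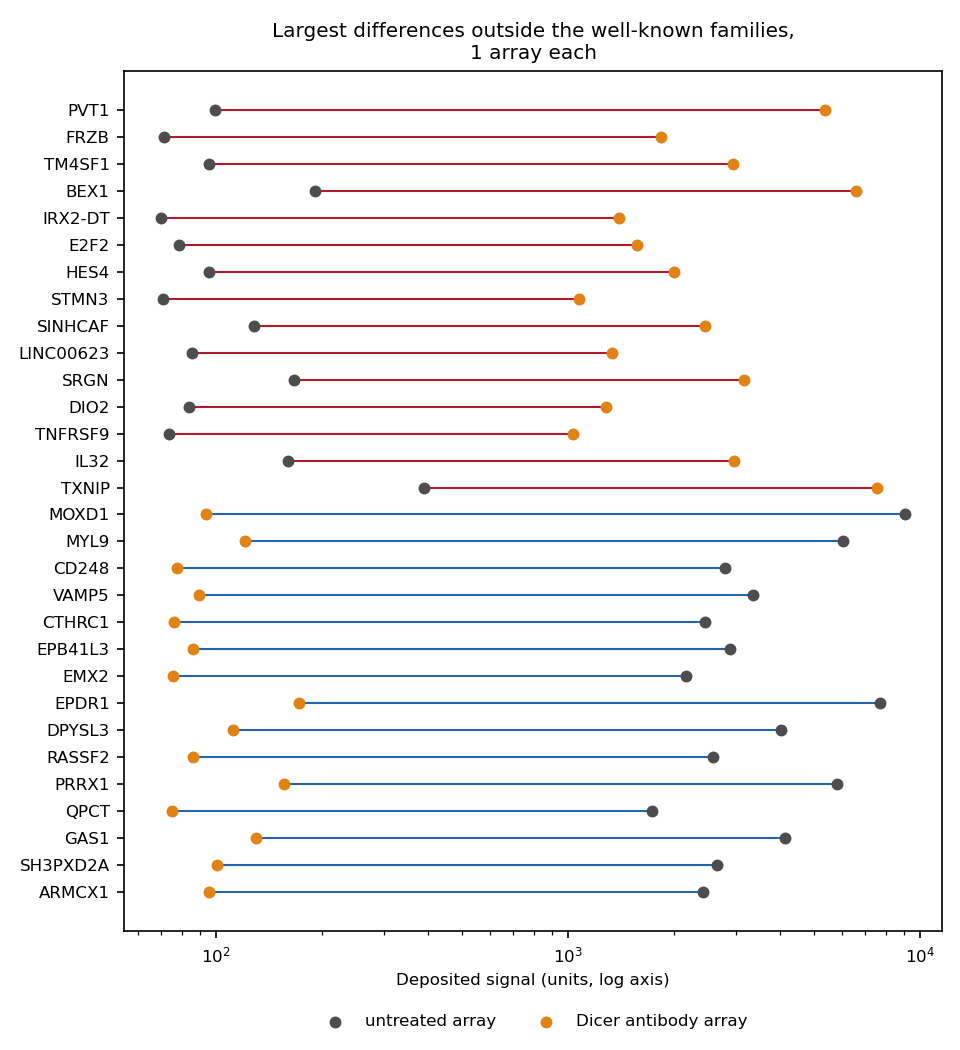
Deposited signals (x axis, units, log scale) of the 15 genes with the largest difference in each direction among those detected on both arrays and outside the well-known families, with grey points for the untreated array and orange points for the Dicer antibody array. PVT1 reads 99.4 and 5378.2 units, and MOXD1 reads 9069 and 93.8 units.

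Genes detected on 1 array alone gave further examples. TMEM119, a membrane protein known from osteoblasts and microglia, read 9874.2 and 49.5 units, at least 50.8-fold lower. GABBR2, a subunit of the receptor for the transmitter GABA, read 5585.9 and 51.9 units, at least 25.1-fold lower. GPER1, a receptor that binds oestrogen at the cell membrane, read 4216.9 and 48.5 units, at least 19-fold lower. In the other direction, sclerostin (SOST), a Wnt inhibitor secreted by bone cells, read 54.7 and 6756.1 units, at least 38.9-fold higher. PLAC8 read 65.9 and 4816.8 units, at least 26.3-fold higher.

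Families were then compared across all gene classes. A set of 100 families covered 3867 compared genes, and 92 families held at least 10 of them. Of these 92, 12 had a median log2 difference of at least 0.5, 14 a median of at most -0.5 and 66 lay between. The families with the higher medians included ribosome production, nucleotide supply, chromosome structure and repair, beside the Notch pathway, ABC transporters and ETS factors. Those with the lower medians included contraction, glycosylation, guidance receptors and proteases of the ADAM family. For the ADAM family the median was -0.59 over 19 genes, but -0.09 over the 11 detected on both arrays.

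**Figure D3:**
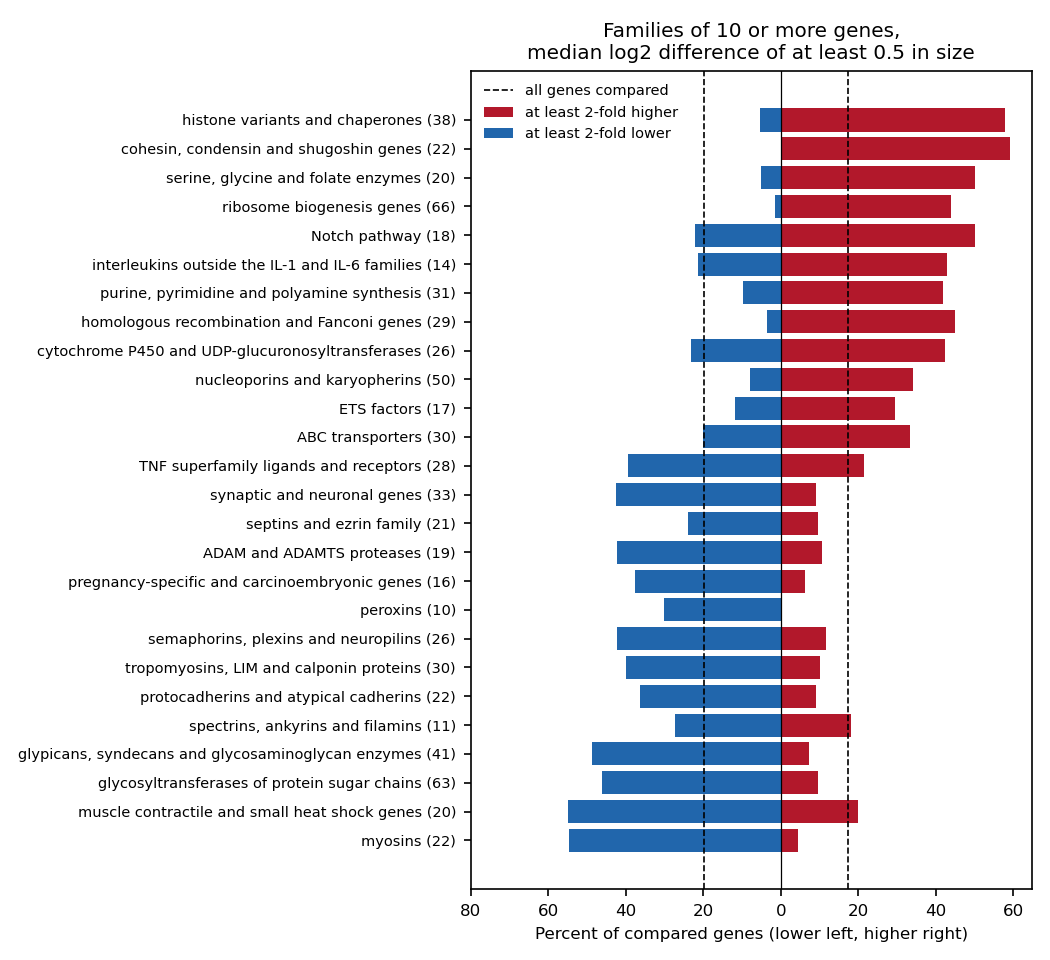
Percent of compared genes that were at least 2-fold higher (to the right) and at least 2-fold lower (to the left) for each family of 10 or more compared genes whose median was at least 0.5 in size, with the number compared in brackets and dashed lines at the values for all genes, 17.4% and 19.7%. Myosins lie at the opposite end from histone variants and chaperones, a list that also holds kinetochore genes.

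Ribosome biogenesis genes make and process ribosomal RNA in the nucleolus. Of 66 compared, 29 were higher and 1 lower, with a median of 0.97, against 17.4% higher over all genes. NOLC1, a nucleolar chaperone of small nucleolar particles, read 115.7 and 674.2 units, 8.44-fold higher. POLR1G, a subunit of RNA polymerase I, read 76.6 and 288 units, 6.15-fold higher, or 1.97-fold under the setting with the smallest fold. The exception was UTP14C, a retrocopy of a processing factor, at 674.1 and 214.4 units, 3.17-fold lower.

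Small nucleolar RNAs guide the chemical modification of ribosomal RNA, and most are cut from introns of host genes. Of 122 such genes compared, 67 were higher and 3 lower, with a median of 1.10, against 17.4% higher and 19.7% lower over all genes. The untreated array detected 77 of them and the Dicer antibody array 117, and 50 of the 122 differences were bounds. Those detected on the Dicer antibody array alone could not come out lower, so the direction of their bounds was set by the detection rule. Their signals were low on both arrays, with medians of 74 and 136.6 units. SNORD96A read 87.6 and 598.7 units, a log2 difference of 3.49, and SNORD16 read 79.2 and 467.4 units, 3.33. Of the 3 lower genes, 2 belong to the SNORD114 cluster, SNORD114-3 at 145.2 and 74.3 units and SNORD114-1 at 120.2 and 76.2 units. The third was SNORA77, at 152.2 and 82.2 units. Signal from the host transcript and from the small RNA cannot be told apart.

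The host genes themselves, grouped after their values were seen, were brighter. Of 13 small nucleolar RNA host genes compared, 9 were higher and none lower, with a median of 1.91. SNHG1 read 554 and 8120.8 units, a log2 difference of 4.19. SNHG7 read 413.1 and 3772 units, 3.55, and SNHG15 read 504.3 and 3082.4 units, 2.94. SNHG9, at 790.9 and 732.9 units, was within 2-fold.

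Medians in the translation apparatus were smaller. Translation factors had 15 higher (25%) and 1 lower (1.67%) members out of 60, at a median of 0.47, against 17.4% and 19.7% of all genes. Among them EEF1A2, the elongation factor isoform of muscle and neurons, read 54.3 and 3115.6 units and was at least 16.7-fold higher. Mitochondrial ribosomal proteins had 19 higher (25%) and 3 lower (3.95%) members out of 76 (median 0.46), yet MRPS6 read 15102.1 and 3036.1 units, 4.54-fold lower. Mitochondrial import genes had 9 higher (25%) and none lower members out of 36 (median 0.49). They were led by CHCHD4, an oxidoreductase of the intermembrane space, at 499 and 2159.4 units. Heterogeneous nuclear ribonucleoproteins and SR proteins, which package and splice RNA, had 17 higher members out of 85 (median 0.43), and this share, 20%, was near the 17.4% of all genes, while 2 (2.35%) were lower. Nucleoporins and karyopherins, the pore and carriers of nuclear transport, had 17 higher (34%) and 4 lower (8%) members out of 50 (median 0.60).

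Nucleotide and folate metabolism lay on the same side. Of 20 serine, glycine and folate enzymes compared, 10 were higher (50%) and 1 lower (5%), against 17.4% and 19.7% of all genes. The median was 0.99. MTHFD2, a mitochondrial folate enzyme, read 297.9 and 2650.5 units, 11.6-fold higher, and PSAT1, of serine synthesis, read 773.5 and 4271.7 units, 6.86-fold higher. The other PSAT1 probe was undetected on both arrays, at 44.8 and 42.2 units. FOLR3, a secreted folate receptor, ran the other way, at 1513 and 53.4 units, at least 7.02-fold lower. In purine, pyrimidine and polyamine synthesis 13 of 31 genes were higher and 3 lower (median 0.77). Ornithine decarboxylase (ODC1), the first enzyme of polyamine synthesis, read 1095 and 5909.2 units, 6.64-fold higher, while ADSS1, the muscle form of adenylosuccinate synthase, was 4.93-fold lower, or 1.76-fold under the setting with the smallest fold.

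Genes of chromosome structure and repair had some of the highest medians. Against 17.4% higher and 19.7% lower of all genes, histone variants and chaperones had 22 higher and 2 lower of 38 (median 1.21). That list also held kinetochore genes such as CENPM and CENPT, which are not histone genes, so the median is not of histone variants and chaperones alone. The kinetochore protein gene CENPM read 193.8 and 1324.4 units, 9.27-fold higher, while CENPT, of the inner kinetochore, read 1520.7 and 304 units, 4.78-fold lower. Of 22 cohesin, condensin and shugoshin genes, 13 were higher and none lower (median 1.10). SGO1, which protects cohesin at centromeres, read 88.1 and 407.2 units, 7.31-fold higher, and the condensin subunit NCAPG read 284.7 and 1496.2 units, 6.83-fold higher. Homologous recombination and Fanconi genes had 13 higher and 1 lower members out of 29 (median 0.75). The exonuclease EXO1 read 79.2 and 715.7 units, 16-fold higher.

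Repair genes of other classes were divided. Excision and mismatch repair genes had 13 higher (25.49%) and 8 lower (15.69%) members out of 51 (median 0.23), against 17.4% and 19.7% of all genes. The glycosylase NEIL3 read 79.5 and 522.5 units, 11.3-fold higher, but its other probe was undetected on both arrays, at 47.7 and 48.5 units. MGMT, which removes alkyl groups from guanine, read 591 and 48.7 units and was at least 3.19-fold lower. ERCC5, an endonuclease of nucleotide excision repair, read 2125 and 213.2 units, 10.2-fold lower.

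Promoter windows were read from RefSeq (GRCh38.p14) for 10028 of the compared genes, each with 250 bases before and 50 after the gene's start. Motifs were searched on both strands, and their matches could overlap those of another motif. The E-box, CACGTG, stood in 20 of 57 ribosome biogenesis windows (35.09%), against 10.11% of all compared genes with a window and 7.43% of all 27305 windows. The E2F motif, TTCCCGC, stood in 13 of 24 homologous recombination and Fanconi windows (54.17%), against 10.08% of all compared genes and 6.56% of all windows. Each family's windows include members that were not higher, and other motifs and families were also searched. A match describes these letters in this window and is not a bound site. Stretches of 80 bases around the first match are shown for 2 higher genes of each family, to let the motif be seen beside the start, with the motif in capitals.
POLR1G (chr19:45406596-45406675, plus strand): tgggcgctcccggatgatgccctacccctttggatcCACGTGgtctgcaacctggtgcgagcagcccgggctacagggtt
MRTO4 (chr1:19251775-19251854, plus strand): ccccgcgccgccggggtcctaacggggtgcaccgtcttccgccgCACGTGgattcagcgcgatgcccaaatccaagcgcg
BLM (chr15:90717236-90717315, plus strand): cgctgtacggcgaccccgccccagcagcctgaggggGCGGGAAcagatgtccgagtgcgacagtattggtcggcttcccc
RAD54L (chr1:46247603-46247682, plus strand): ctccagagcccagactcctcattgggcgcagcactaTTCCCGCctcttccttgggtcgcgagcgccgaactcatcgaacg
In POLR1G the E-box began 12 bases before the start, and MRTO4, a ribosome assembly factor at 213.1 and 863.7 units, held it within the first bases after the start. RAD54L, a motor of recombination, read 84.8 and 368.6 units. BLM, the helicase mutated in Bloom syndrome, read 56.3 and 281.6 units, at least 2.02-fold higher, and its motif is on the other strand.

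Over all genes the motif shares differed less. The E-box stood in 10.93% of windows of genes at least 2-fold higher, 9.13% of lower genes and 9.42% of genes within 1.5-fold. The E2F motif stood in 12.37%, 8.48% and 9.58% of these groups. The NF-kB motif, searched as GGGA, any 2 bases and TTCC, stood in 2.93% of windows of genes at least 2-fold higher, 1.05% of lower genes and 1.28% of genes within 1.5-fold, against 1.63% of all windows. The ATF4 motif, TGATGNAA, stood in 2.93%, 1.5% and 1.74% of the same groups, and in 3.67% of all windows. The TATA motif, TATAAA, stood in 16.99% of windows of genes at least 10-fold higher, 10.71% of those at least 10-fold lower and 6.12% within 1.5-fold, against 11.95% of all windows. The CArG box, the motif of serum response factor, stood in 7 of 224 windows of genes at least 10-fold lower (3.12%), in 3 of 153 at least 10-fold higher (1.96%), in 0.85% within 1.5-fold and in 1.29% of all windows. At the 2-fold limit the order turned, with 1.55% of higher and 1.1% of lower genes. The median number of CpG pairs per window was 14 for genes at least 10-fold higher, as it was over all windows, against 23 for genes at least 10-fold lower and 25 within 1.5-fold. The following stretches show the NF-kB motif in 2 of the strongly higher genes and the CArG box in 1 strongly lower gene, again in capitals.
CXCL2 (chr4:74099230-74099309, minus strand): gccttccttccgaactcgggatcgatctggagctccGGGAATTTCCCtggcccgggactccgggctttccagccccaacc
TNFRSF9 (chr1:7940870-7940949, minus strand): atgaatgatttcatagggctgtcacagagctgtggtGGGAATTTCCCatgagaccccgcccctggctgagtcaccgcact
ACTC1 (chr15:34795615-34795694, minus strand): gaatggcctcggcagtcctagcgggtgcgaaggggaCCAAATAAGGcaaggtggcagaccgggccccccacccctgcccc
The first match began 78 bases before the start in the chemokine gene CXCL2 and 74 bases before it in TNFRSF9. Overlapping matches make the capitals longer than the motif in both. ACTC1, the cardiac actin gene, read 2793.1 and 54.9 units, and its match began 109 bases before the start.

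The most negative medians were those of myosins and of muscle contractile and small heat shock genes. Of 22 myosins compared, 12 were lower and 1 higher (median -1.23). MYO1C, a membrane-bound motor, read 2135.2 and 109.2 units, 26.1-fold lower, while MYO19, the motor of mitochondria, read 222.9 and 478.1 units, 2.64-fold higher, or 1.8-fold under the setting with the smallest fold. Of 20 muscle contractile and small heat shock genes, 11 were lower and 4 higher (median -1.11). Among them HSPB7, a small heat shock protein of heart, read 3040.7 and 49.6 units, at least 13.5-fold lower, whereas myoglobin (MB) read 39.6 and 333.8 units, at least 2.28-fold higher. Tropomyosins, LIM and calponin proteins had 12 lower and 3 higher members out of 30 (median -0.70), with LMCD1 at 1285.1 and 143.1 units, 10.6-fold lower.

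Rab GTPases and SNAREs, of vesicle traffic, had 26 lower (26.53%) and 14 higher (14.29%) members out of 98 (median -0.35). The shares of all genes were 19.7% and 17.4%, so these lay not far from them. RAB3B, a Rab of regulated secretion, read 1548.2 and 77.7 units, 34.5-fold lower. Tubulins and stathmins were even, with 4 higher and 4 lower of 25 (16% each). Within that family the neuronal stathmins went opposite ways, STMN3 at 70.8 and 1074.1 units, 29.9-fold higher, and STMN2 at 1872.5 and 67.2 units, at least 8.46-fold lower.

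Enzymes that build and cut sugar chains were lower as groups. Glycosyltransferases of protein sugar chains had 29 lower (46.03%) and 6 higher (9.52%) members out of 63, at a median of -0.91. The shares of all genes were 19.7% and 17.4%. ST6GALNAC6, a sialyltransferase, read 3099.4 and 403.3 units, 7.06-fold lower, and GALNT18, which starts O-linked chains, read 48.1 and 518.1 units, at least 3.19-fold higher. Glypicans, syndecans and glycosaminoglycan enzymes had 20 lower and 3 higher members out of 41 (median -0.87). SULF1, which removes sulfate from heparan sulfate outside the cell, read 3140.8 and 51.5 units, at least 14-fold lower. Its paralogue SULF2 read 159 and 303.1 units, 2.33-fold higher, but 1.51-fold under the setting with the smallest fold, and both of its other probes were within 2-fold (log2 differences of 0.36 and 0.65). CEMIP, which breaks down hyaluronan, read 7199.6 and 394.3 units, 17-fold lower.

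Organelle families had smaller negative medians, and most had shares of lower genes at or below the 19.7% of all genes. Lysosomal hydrolases and membrane proteins had 11 lower (36.67%) and 2 higher members out of 30 (median -0.46), led by IDUA, which degrades dermatan and heparan sulfate, at 516.8 and 53.6 units, at least 2.88-fold lower. COPI, COPII and golgin genes, of transport between endoplasmic reticulum and Golgi, had 11 lower (14.86%) and 2 higher members out of 74 (median -0.34). Endoplasmic reticulum chaperones had 5 lower (17.86%) and none higher members out of 28, with calreticulin (CALR) at 4543.2 and 1313.2 units, 2.91-fold lower. Autophagy genes had 8 lower (19.05%) and 2 higher members out of 42 (median -0.31). The lipid droplet coat gene PLIN2 read 3772.9 and 63.7 units and was at least 16.9-fold lower. Its family of lipid-binding genes nevertheless had 8 higher (26.67%) and 5 lower (16.67%) of 30.

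Among ligands and receptors, semaphorins, plexins and neuropilins, which guide axons and vessels, had 11 lower and 3 higher members out of 26 (median -0.70). Of all genes 19.7% were lower and 17.4% higher. PLXNB3 read 491.6 and 65.1 units, at least 2.78-fold lower, and SEMA3A read 365.9 and 1014.2 units, 3.42-fold higher. In the TNF superfamily 11 of 28 were lower (39.29%) and 6 higher (21.43%, near the 17.4% of all genes), with a median of -0.52. CD70, the ligand of CD27, read 64 and 1607 units, at least 8.78-fold higher. Osteoprotegerin (TNFRSF11B), the decoy receptor of RANK ligand, read 6014.4 and 530.9 units, 10.1-fold lower.

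The Notch pathway had 9 higher (50%) and 4 lower (22.22%) genes of 18, with a median of 0.90, against 17.4% and 19.7% of all genes. Its ligand JAG1 read 83.6 and 673.1 units, 13.6-fold higher, beside HES4 above. The receptors NOTCH2 and NOTCH3 read 289.9 and 115.3 units and 148.9 and 74.7 units, 3.06-fold and 3.03-fold lower. Both fell under 2-fold, to 1.45-fold and 1.35-fold, under the setting with the smallest fold. The other NOTCH2 probes were undetected on both arrays. Wnt signal genes were divided, with 6 higher (25%) and 8 lower (33.33%) of 24. The receptor FZD7 read 3485.4 and 202.2 units, 18.2-fold lower, or 4.43-fold under the setting with the smallest fold, but its other probe read 153.9 and 143.1 units, a log2 difference of -0.11. RSPO3, a secreted amplifier of the pathway, was at least 4.25-fold lower, while RNF43, which removes Wnt receptors from the surface, was at least 1.95-fold higher.

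Other signals were mixed within families. VEGFC, a growth factor of lymphatic vessels, read 3503.6 and 787.5 units, 3.86-fold lower, while VEGFA, of blood vessels, read 138.8 and 1647.3 units, 17.2-fold higher. EFNA1 read 48 and 1398.6 units, at least 7.69-fold higher, and the ephrin EFNB2 read 1839.5 and 414.3 units, 4.03-fold lower. Of the lipid mediators, cyclooxygenase-2 (PTGS2), which makes prostaglandins, read 228.2 and 3009.1 units, 17.7-fold higher. ENPP2 (autotaxin), which makes lysophosphatidic acid, read 3609.7 and 256.6 units, 14-fold lower. INHBE, an activin subunit, read 59.5 and 1838.7 units, at least 10-fold higher.

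Channel and cadherin families had more lower than higher members. Potassium channels had 12 lower and 3 higher members out of 32 (median -0.44), with the stretch-activated KCNK2 at 3614 and 54.3 units, at least 11-fold lower, and KCNG1 at 83.9 and 805.9 units, 16.6-fold higher. Sodium, calcium and TRP channels had 12 lower and 2 higher members out of 38 (median -0.49). Protocadherins and atypical cadherins had 8 lower and 2 higher members out of 22 (median -0.71), with PCDH18 at 3044.7 and 140.9 units, 25.9-fold lower. The immunoglobulin superfamily split, since VCAM1 and ICAM1, adhesion molecules that bind leukocytes, were at least 3.08-fold and 2.67-fold higher and the junction protein JAM3 was 28.1-fold lower. Solute carriers, the largest transport family, were even, with 45 higher (21.43%) and 43 lower (20.48%) of 210 (median -0.02), near the 17.4% and 19.7% of all genes. Synaptic and neuronal genes had 14 lower and 3 higher members out of 33 (median -0.54), and in this family UCHL1, a ubiquitin hydrolase abundant in neurons, read 3748.5 and 49.9 units, at least 16.7-fold lower. Among solute carriers, the urea transporter SLC14A1 read 88.2 and 906 units, 17.4-fold higher (its dimmer probe read 53.5 and 77 units), and SLC2A10, a glucose transporter family member, read 2160.8 and 53.8 units, at least 9.6-fold lower.

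Most transcription factor families had medians under 0.5 in size, but single members differed strongly. FOXA2, a pioneer factor of endoderm, read 40.8 and 2533.2 units, at least 5-fold higher. Its other probes were undetected on both arrays, at 42.3 and 63.6 units and at 49.7 and 45.3 units. FOXL2, a factor of ovarian granulosa cells, read 520.5 and 44.4 units, at least 2.9-fold lower, and its other probe was undetected on both. PRRX2 read 2206.4 and 53 units, at least 9.76-fold lower, like its relative PRRX1. The inhibitor of differentiation ID2 read 6312.1 and 585.4 units, 9.48-fold lower, and TWIST2, a factor of mesenchyme, was 11.5-fold lower. The polycomb gene CBX2 was at least 3.2-fold higher, but its other probes were undetected on both arrays. IRF1, an interferon-induced factor, read 199 and 1719.2 units, 11.8-fold higher. Of 349 zinc finger genes with ZNF symbols, 26 were higher and 59 lower, 24.36% in all, against 37.1% over all genes.

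Toll-like receptors and their adaptors had 9 higher and 9 lower members out of 33 (27.27% each), against 17.4% and 19.7% of all genes. IRAK2, a kinase below Toll-like receptors, read 287.4 and 2338.5 units, 10.7-fold higher. STING1, the sensor adaptor for cytosolic DNA, read 1467.3 and 153.3 units, 11-fold lower, and the inflammasome adaptor PYCARD read 1312.4 and 53 units, at least 6.24-fold lower. Caspase 1 (CASP1), which PYCARD recruits, read 208 and 1134.5 units, a log2 difference of 2.84.

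Genes of the germ line were detected on the Dicer antibody array. These groups were formed after their values were seen, and many members are near-identical copies on the X chromosome whose probes may not be told apart. Since none of them passed the detection limit on the untreated array, every member compared had passed it on the Dicer antibody array, and the direction is set by that rule. Of 12 GAGE genes with a probe, 11 were compared, and these read 44 to 65.5 units on the untreated array and 206.1 to 8152.1 units on the Dicer antibody array. GAGE4 read 59.1 and 8152.1 units. Of 10 SPANX genes, which encode sperm proteins of the nuclear envelope, 6 passed and read 225.2 to 7044.7 units on the Dicer antibody array. Of 10 PAGE and VCX genes, 7 passed and read 810 to 4100.3 units there. The remaining genes of each group were detected on neither array.

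The MAGE genes split by class. Of 24 MAGE-A, MAGE-B and MAGE-C genes with a probe, which are normally restricted to testis, 10 were detected on the Dicer antibody array. By the probe chosen for each gene, none was detected on the untreated array, and the other 14 were detected on neither. Of those 10, 8 were at least 2-fold higher. MAGEC2 read 43.1 and 2670.5 units. Its other probe read 68.5 and 744.6 units and narrowly passed the detection limit on the untreated array. Of 9 other MAGE genes, which many tissues use, 7 were detected, each on both arrays, and 4 were lower and none higher. MAGED1, an adaptor of neurotrophin receptor signalling, read 8558.5 and 2888 units, a log2 difference of -1.32.

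The array's genes were also put in chromosome order with RefSeq's gene table. In 17 places at least 5 neighbouring compared genes were all at least 2-fold different in 1 direction. The 7 genes from HOXB2 to HOXB8 on chromosome 17, homeobox factors that set position along the body axis, were all lower. HOXB5 read 1483.5 and 83.4 units, a log2 difference of -4.85, and HOXB2 read 1523.7 and 87 units, -4.78. Over all HOX clusters, 19 of 29 genes with a probe were compared, all of them detected on the untreated array, and 12 were lower and 1 higher. The 1 higher gene was HOXC13, a factor of hair and nail, at 84.2 and 262.4 units. For 7 of the 19 the difference was a bound, since they were undetected on the Dicer antibody array and could not come out higher. Among all genes 19.7% were lower.

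On chromosome 12 the keratins KRT80, KRT7, KRT75, KRT8 and KRT18 formed a run of higher genes. KRT80 read 67 and 5392.7 units, and KRT75, a hair follicle keratin, read 84.1 and 901.6 units. KRT8 and KRT18, the keratin pair of simple epithelia, read 53.2 and 371.2 units and 51.4 and 253.5 units. On chromosome 17 a different stretch was detected on the untreated array alone, with KRT34 at 436 and 71.2 units and the hair keratin-associated gene KRTAP1-5 at 263.9 and 58.3 units.

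On chromosome 6, HLA-DOB, TAP2, PSMB8, TAP1 and PSMB9 were all higher, and the last 4 serve the making and transport of peptides for class I antigen presentation. PSMB9, an immunoproteasome subunit, read 97.8 and 650.3 units, a log2 difference of 3.37. HLA-DOB, TAP2 and TAP1 fell under 2-fold, to 1.5-fold, 1.95-fold and 1.91-fold, under the setting with the smallest fold. On chromosome 5 a run of DNAJC18, STING1, CXXC5, PURA and IGIP was lower, though DNAJC18 and IGIP fell under 2-fold, to 1.54-fold and 1.76-fold, under the setting with the smallest fold. CXXC5, a zinc finger regulator of Wnt signalling, read 1994 and 160.2 units there, -3.81.

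Neighbours on the X chromosome split. The run TCEAL7, TCEAL9, BEX3, TCEAL4, TCEAL3 and TCEAL1, small proteins related to transcription elongation factors, was lower. BEX3 read 5562.7 and 1446.1 units, a log2 difference of -1.69, and TCEAL7 read 443.1 and 54.8 units, at which it was not detected. The other TCEAL7 probe was undetected on both arrays, at 49.2 and 40.7 units. BEX1, of the same family, was 48.1-fold higher, at 190.8 and 6593.5 units, and 8.12-fold higher under the setting that gave the smallest fold. Its other probe was within 2-fold, at 469.3 and 548.3 units, a log2 difference of 0.45. BEX2 was also higher, at 73 and 207.7 units.

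**Figure D4:**
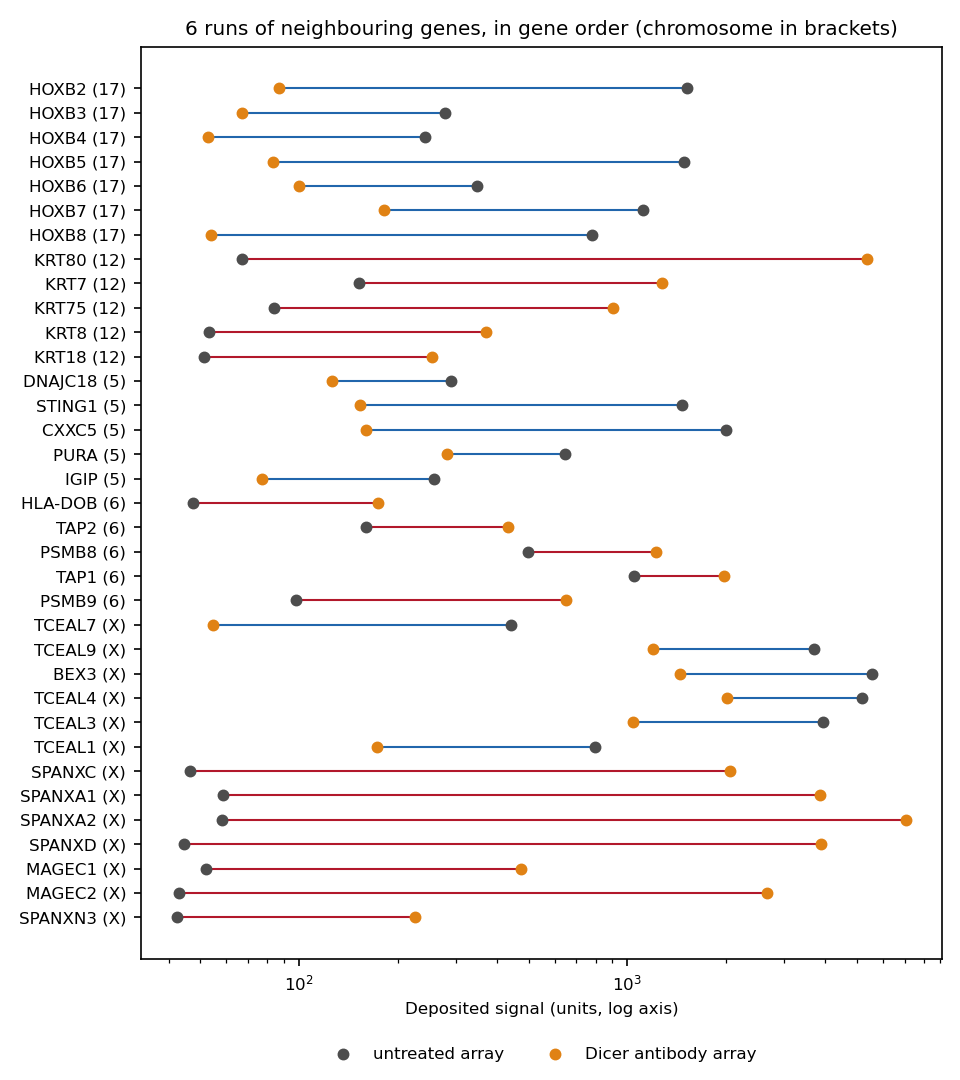
Deposited signals (x axis, units, log scale) of the genes in 6 of the 17 runs of neighbouring genes that differed in 1 direction, in gene order with the chromosome in brackets, with grey points for the untreated array and orange points for the Dicer antibody array. All HOXB genes shown read lower on the Dicer antibody array, and KRT80 reads 67 and 5392.7 units.

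Several genes of the short arm of chromosome 9 around CDKN2A passed the detection limit on the untreated array alone. This stretch was chosen after its values were seen. MTAP, which salvages methionine and adenine, read 603.9 and 62.3 units. CDKN2A and CDKN2B, which encode inhibitors of the cell cycle kinases CDK4 and CDK6, read 119.6 and 53.5 units and 372.9 and 56.3 units. All 3 were above the detection limit on the untreated array and below it on the Dicer antibody array. MCF10A is known to have lost CDKN2A, so the detection of this gene on the untreated array goes against that array's label.

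Further out, KLHL9, a ubiquitin ligase adaptor, read 1461.6 and 68.8 units, and FOCAD, of focal adhesions, read 1038.9 and 48.9 units. HACD4, which lies between them and elongates fatty acids, was alike, at 307.2 and 310.9 units. The flanking ribosomal protein gene RPS6 read 13224.1 and 12173.2 units, and TUSC1 on the other side read 517.7 and 146.5 units and was detected on both. Other genes between RPS6 and TUSC1 also did not share the pattern. ACER2, a ceramidase, was detected on both arrays at 86 and 95.2 units, and MLLT3, a transcription elongation factor, at 68.8 and 71.6 units, and the interferon gene IFNE, at 71.2 and 55.2 units, were near the detection limit and within 2-fold. The interferon alpha genes were detected on neither array. Whether DNA was missing was not measured.

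By chromosome, the shares of higher and lower genes were near those of all genes for most. Chromosome 20 stood at 26.25% higher and 12.09% lower of 339 genes, with a median of 0.36 over the genes detected on both arrays. Chromosome 9 stood at 13.77% and 25.15%, chromosome 13 at 16.51% and 26.89%, and chromosome 21 at 17.04% and 27.41%. Chromosome 4 stood at 23.59% and 19.26%.

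**Figure D5:**
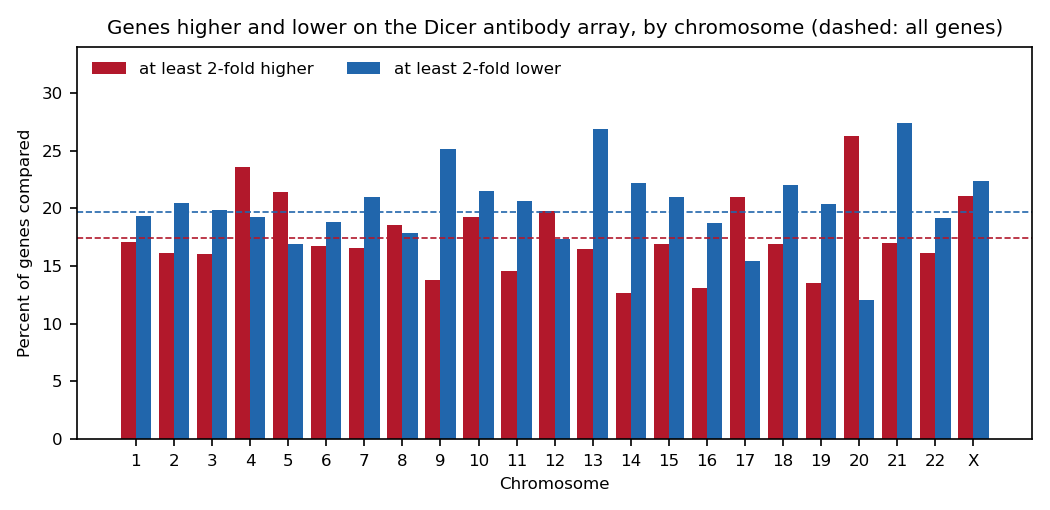
Percent of compared genes at least 2-fold higher (red) and at least 2-fold lower (blue), by chromosome, with dashed lines at the values for all genes, 17.4% and 19.7%. Chromosome 20 has 26.25% higher and 12.09% lower genes.

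The share of genes called differed with brightness. Among the 3130 dimmest genes by brighter signal, 67.8 to 150.2 units, 16.81% differed by at least 2-fold. In the next 3 brightness classes of 3129 genes each the share was 45.09%, 43.85% and 42.7%. By class of transcript, protein-coding genes were called in 37.43% of 11844 cases and long non-coding RNA genes in 27.8% of 241.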

How the data were processed

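Per the file headers, the authors deposited a table of probe intensity values, on a linear scale and without background subtraction, each beside a detection p-value. The submitters' processing notes name limma, with no version. The authors' deposited value table served as an alternative. Of 47322 probes, 30110 had 1 gene symbol in the platform annotation, 8 several and 17204 none. By gene identifier, 30071 symbols were matched to RefSeq's gene table, whose symbol was then used. The probe with the highest mean stood for its gene. The 2 arrays were background-corrected and quantile-normalized with neqc (limma 3.58.1, R 4.3.3, offset 16), which read the background from the detection p-values. The routine was tested on simulated data. A gene detected on 1 array was compared with its own value on the dim array or with the lowest value detected there, whichever was higher. Differences of at least 2-fold were counted. Tables used Python 3.11.15, numpy 2.4.6, pandas 2.3.3 and matplotlib 3.10.9.

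Members and lists were chosen with earlier results of these data known, and family lists were tidied after values were seen. Genes were named by rule: the 5 largest differences each way, the 15 each way outside well-known families, the 6 largest such bounds, up to 2 each way per family, the 10 brightest per array, runs of at least 5 neighbours, and DICER1. Others were named after their values were seen: MYC, the small nucleolar RNAs and host genes, the germ line genes, HOXC13, KRT34, KRTAP1-5, BEX2, the chromosome 9 neighbours, and genes printed for their promoters. Some results are not reported here.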

Additional observations from a re-analysis of the deposited data

How the results depend on the processing

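With 1 array a group, nothing was tested, and signal over background limits the dim genes. Of the alternatives tried, only the authors' value table moved the counts by more than 1.5 times, to 1077 higher and 1222 lower genes against 2178 and 2467. Under every setting except detection on both arrays and a mean over probes, 987 genes stayed at least 2-fold higher and 1209 lower. The share of called genes that was higher was 46.89%, and 40.17% with no normalization between arrays, where genes detected on both had a median of -0.15. Among 30 family medians of at least 0.5 in size, 1 reversed: pregnancy-specific and carcinoembryonic genes, at -0.63, became 0.0729 over the 3 genes detected on both arrays. With no detection filter 10 were smaller by more than 1.5 times. Of 500 named genes past 2-fold, 232 shrank by more than 1.5 times with no background correction, 228 with an offset of 50 and 404 in the authors' table. Of the 500, 136 fell under 2-fold in the authors' table, 38 as a mean over probes, 33 with no background correction, 33 with an offset of 50 and 26 with quantile normalization over all 4 arrays. The only one of the 500 to reverse was CDC42EP1, which at 1.09 on the log2 scale became -0.0404 as a mean over its probes. The causes were not tested. No paired analysis was possible because each group held 1 array.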

Other observations

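Several gene clusters not described above were detected on 1 array alone, and all were picked after their values were seen. On chromosome 11 the embryonic globin gene HBE1 read 36.2 and 552.1 units (untreated, then Dicer antibody), and the fetal globin genes HBG1 and HBG2 read 46.7 and 88.8 units and 61.8 and 107.1 units. The adult globin gene HBB was detected on neither, at 54.4 and 59.6 units. On chromosome 18 the desmosomal cadherin DSG2, which links epithelial cells, read 49.2 and 1701.4 units, while its neighbours DSC2 and DSC3 reached only 84 and 74.8 units on the Dicer antibody array. The detoxifying UDP-glucuronosyltransferases UGT1A6, UGT1A7 and UGT1A10, which share exons, read 115.7, 172.7 and 164.1 units there and were undetected on the untreated array.

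Pregnancy-specific glycoproteins on chromosome 19, normally made by the placenta, were lower for 6 and higher for none of 8 compared, out of 10 with a probe. All 8 were detected on the untreated array. For 6 of the 8 the difference was a bound, since they were undetected on the Dicer antibody array and could not come out higher. Among all genes 19.7% were lower. PSG3 read 361.6 and 60.2 units and PSG5 read 315.7 and 45.3 units, whereas PSG4 was within 2-fold, at 518.8 and 477.9 units. The other probes of PSG3 and PSG5 were undetected on both arrays. On the X chromosome the matrix remodelling gene MXRA5 read 3237.5 and 54.8 units, and the blood group gene XG read 310 and 44.5 units.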
